A study of Mus musculus with 8 samples.

Results

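The Ly6 surface antigens examined here are 6 mouse genes, Ly6a, Ly6c1, Ly6c2, Ly6d, Ly6e and Ly6g, taken as a named family. Array probes were assigned to them by the RefSeq accession that the array design gives for each probe. By that rule 4 of the 6 genes had a probe, with 5 probes in all, out of 55681 probes and 20284 named genes on the array. Ly6a, Ly6d and Ly6e had 1 probe each and Ly6c1 had 2. No probe carried an accession of Ly6c2 or Ly6g, and the RNA of these genes is not analysed here.

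The RNA came from granulocyte progenitors (GPs) sorted from mouse bone marrow in 2 independent experiments, and each sample was hybridised to its own one-colour (Cy3) Agilent array. The 4 groups had 2 arrays each: wild-type Flt3+ GPs, wild-type Flt3- GPs, Flt3+ GPs labelled Irf8KO and Flt3- GPs labelled Irf8KO. Flt3 is a receptor tyrosine kinase of early progenitors, and Irf8 encodes a transcription factor of monocyte and dendritic cell development. All cells were freshly isolated, with no treatment, and the age, sex and strain of the mice, the form of the Irf8 deletion, any pooling of animals and the surface markers of the sort other than Flt3 are absent from the sources used here.

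Ly6 proteins are small, cysteine-rich proteins of the Ly6/uPAR fold, most of them held on the outer cell surface by a glycosylphosphatidylinositol (GPI) anchor. Several are read by antibodies that define blood cell types: Ly6a is Sca-1, found on haematopoietic stem and multipotent progenitor cells, Ly6d appears on B-lineage-primed lymphoid progenitors, Ly6c1 and Ly6c2 together give the Ly6C antigen of monocytes and granulocyte precursors, and Ly6g marks mature neutrophils. Ly6e is an interferon-inducible member present on many cell types. Sca-1 and Ly6C are commonly used to sort bone marrow progenitors, so where the gate used either antigen, the gate and an RNA difference of that gene cannot be told apart.

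Between 54.9% and 60.1% of the spots on an array were well above background, and saturation was seen on 0 spots. The 2 arrays of a group correlated at r = 0.9958 to 0.9975 across genes. Each value that follows is a log2 signal minus the 75th percentile of its array, and a difference was called at an adjusted p under 0.05 over 14109 genes (limma, Benjamini-Hochberg adjustment). Nothing says that the arrays of a group came from separate animals, so the p-values cover only how far these samples spread, which may be technical. The Flt3 signal was 6.21 and 6.21 in wild-type Flt3+ cells, against 1.69 and 1.66 in Flt3- cells, and it was 6.29 and 6.30 against 2.71 and 2.68 on the arrays labelled Irf8KO. Irf8 RNA was higher on the arrays labelled Irf8KO, by 0.84 in Flt3+ and by 0.72 in Flt3- GPs, where its signal was 6.67 and 6.67 against 5.80 and 5.87, and 5.64 and 5.53 against 4.85 and 4.88. The sources used here do not place the Irf8 probe relative to the deleted part; it cannot check the genotype labels, and every genotype direction below rests on them. Elane, the neutrophil elastase gene of granulocyte progenitors, ranged from 3.58 to 8.80 over the arrays, and Mpo, the myeloperoxidase gene, was lowest at 8.75, in wild-type Flt3+ GPs. Genotype followed the row of the array slide and Flt3 status its columns, so slide position and group cannot be told apart.

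Ly6d differed most widely of the 4 genes, over both populations and both genotypes. Its signal was 0.77 and 0.87 in wild-type Flt3+ cells, against -2.42 and -2.34 in wild-type Flt3- cells. With the Irf8KO label it was 3.15 and 3.11 in Flt3+ cells, against -4.90 and -4.14 in Flt3- cells. The 4 groups did not overlap, with Flt3+ GPs labelled Irf8KO highest and Flt3- GPs labelled Irf8KO lowest. On 1 of the 2 arrays of that lowest group the probe was not well above background. As processed intensities, the same arrays gave 806 and 1157 in wild-type Flt3+, 76.7 and 86.8 in wild-type Flt3-, 3586 and 3568 in Flt3+ labelled Irf8KO, and 20.4 on the Flt3- array labelled Irf8KO that was well above background.

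**Figure D1:**
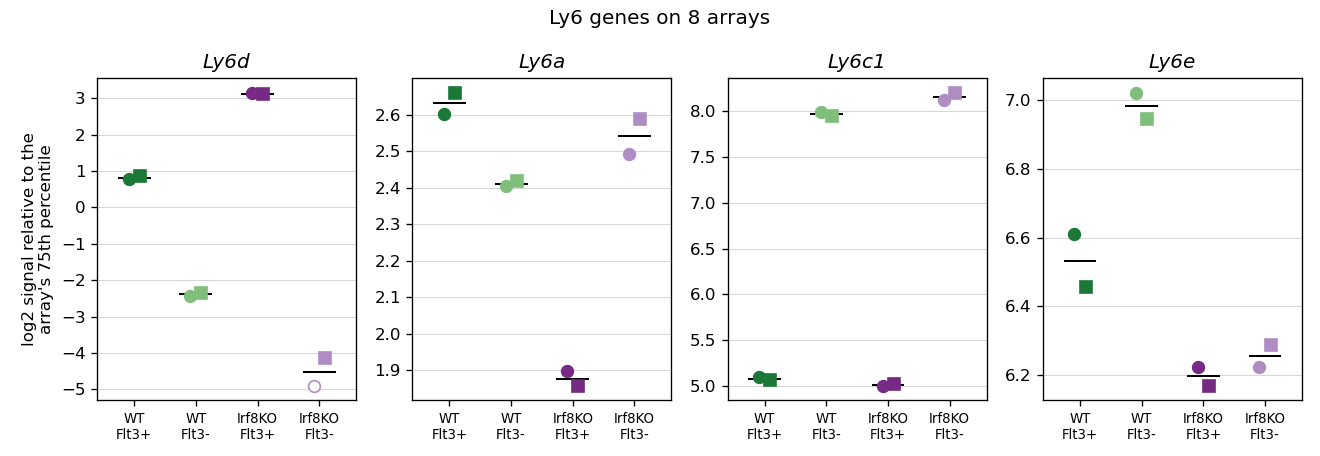
Log2 signal relative to the array's 75th percentile (y axis, a separate scale for each gene) of Ly6d, Ly6a, Ly6c1 and Ly6e in the 4 groups (x axis). Circles are experiment 1, squares experiment 2, bars the mean of the 2 arrays, and the open circle an array on which the probe was not well above background. Ly6d spans -4.90 to 3.15, and Ly6a is lowest, at 1.90 and 1.86, in Flt3+ GPs labelled Irf8KO.

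In wild-type GPs, Ly6d RNA was 9.20-fold higher in Flt3+ than in Flt3- cells (log2 difference 3.20, SE 0.23, limma adjusted p = 0.000104). Among the arrays labelled Irf8KO the difference was 7.66 (SE 0.23, limma adjusted p = 5.74e-06), a fitted 202-fold. That size rests on the dim Flt3- signals: with a background correction that adds an offset, chosen after seeing the data, it was 5.12, and the call held. In bulk RNA, fewer cells of a type and less RNA per cell cannot be told apart, here and for each gene that follows.

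The genotype difference of Ly6d had opposite signs in the 2 populations. In Flt3+ GPs Ly6d was 4.97-fold higher on the arrays labelled Irf8KO (log2 difference 2.31, 95% interval 1.74 to 2.88, limma adjusted p = 0.00143). In Flt3- GPs it was 4.41-fold lower (-2.14, -2.71 to -1.57, limma adjusted p = 0.00129), although the offset correction reduced this fall to -0.57. The test of the difference between the populations, the genotype difference in Flt3+ minus that in Flt3- GPs, gave 4.45 (SE 0.33, limma adjusted p = 0.00143), and 2.71 with the offset correction, where the call held.

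Early lymphoid genes moved beside Ly6d. Of 18 measured genes of an early lymphoid list, 13 were higher and 2 lower in wild-type Flt3+ than Flt3- GPs. Over all genes tested, 22.6% were called higher and 39.2% lower. The median difference of the list was 1.99 against -0.12 over all genes tested. The offset correction gave 13 higher and 3 lower with a median of 0.97. Dntt, which encodes the terminal transferase of lymphoid progenitors, was at 6.81 and 6.91 in wild-type Flt3+ and at -1.17 and -1.20 in wild-type Flt3- cells. With the Irf8KO label it was at 7.79 and 7.92 in Flt3+ and at -0.93 and -0.85 in Flt3- GPs. Unlike Ly6d, Dntt was thus not lowest in the Flt3- GPs labelled Irf8KO. Rag1, a recombinase gene, and Il7r, the interleukin 7 receptor gene, were not well above background on any array of either Flt3- group. Their RNA was at least 20.6-fold and at least 34.2-fold higher in wild-type Flt3+ GPs (limma adjusted p = 7.54e-06 and 7.49e-06), measured against the lowest signal well above background.

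Over all genes, 16.5% were called higher and 12.5% lower between genotypes in Flt3+ GPs, with a median of 0.04. Of the 18 lymphoid genes 9 rose and 2 fell there where labelled Irf8KO, with a median of 0.52. These 11 calls became 7 without the Irf8KO-labelled array of experiment 2. In Flt3- GPs 6 were higher and 4 lower, against 16.5% and 27.2% of all genes. The list had a median of -0.0049 there against -0.03 over all genes. That list median was above 0 under quantile normalization (0.06) and the offset correction (0.09). The log2 summed level of the list ranged from 7.36 to 7.44 in wild-type Flt3+ and was 4.66 on both arrays of wild-type Flt3- GPs. It ranged from 8.14 to 8.24 and from 4.96 to 5.03 in the corresponding groups labelled Irf8KO. The 12 measured plasmacytoid dendritic cell genes stand for a lineage whose precursors also carry Ly6d. In Flt3+ GPs of either genotype 6 of them were higher and none was lower. Over all genes, 22.6% were higher and 39.2% lower in wild type, and 22.1% and 23.6% among the arrays labelled Irf8KO. Between genotypes in Flt3+ GPs 2 of the 12 rose and 3 fell, against 16.5% and 12.5% of all genes. These 5 calls became 3 without either the wild-type array of experiment 1 or the Irf8KO-labelled array of experiment 2. The part of lymphoid-primed or plasmacytoid cells in the Ly6d differences was not tested.

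The 3 genes whose profile over the 8 arrays was nearest to that of Ly6d, by the root mean square difference of mean-centred log2 values, were Epha2 (0.651), Nsg2 (0.673) and Blnk (0.756). For scale, the SD of the Ly6d profile was 2.94. Epha2 encodes an ephrin receptor, Nsg2 a neuronal vesicle protein and Blnk the B cell linker adaptor of B-cell receptor signalling. Blnk was well above background on all 8 arrays, and its group means were 2.08 and -1.87 in wild-type Flt3+ and Flt3- and 2.54 and -3.29 in the same populations labelled Irf8KO. The Blnk difference between genotypes in Flt3- GPs was -1.42, a value that describes a gene chosen for its likeness to Ly6d. Epha2 and Nsg2 were not well above background on any array of either Flt3- group.

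Ly6a, the Sca-1 gene, was lowest in 1 group, the Flt3+ GPs labelled Irf8KO. Its signal was 2.60 and 2.66 in wild-type Flt3+ and 2.41 and 2.42 in wild-type Flt3- GPs. It was 1.90 and 1.86 in Flt3+ and 2.49 and 2.59 in Flt3- GPs labelled Irf8KO. The other 3 groups lay between 2.41 and 2.66 without overlap, and wild-type Flt3+ and Flt3- labelled Irf8KO, next to each other in that order, had their nearest arrays at 2.60 and 2.59.

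The population difference of Ly6a turned its sign with genotype. In wild type Ly6a was 1.16-fold higher in Flt3+ than in Flt3- GPs (0.22, SE 0.050, limma adjusted p = 0.0105). This call was lost without the wild-type Flt3- array of experiment 1 (limma adjusted p = 0.0575). Among the arrays labelled Irf8KO it was 1.58-fold lower in Flt3+ GPs (-0.66, SE 0.050, limma adjusted p = 0.000166).

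Between genotypes, Ly6a RNA was 1.69-fold lower on the Flt3+ arrays labelled Irf8KO (-0.75, 95% interval -0.88 to -0.63, limma adjusted p = 0.000309). In Flt3- GPs the difference was 0.13 (0.01 to 0.25) and missed the threshold (limma adjusted p = 0.0857), though quantile normalization gave 0.19 and passed it (0.0222). The genotype differences of the 2 populations differed by -0.88 (SE 0.071, limma adjusted p = 0.00171).

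Of 19 other stem and multipotent progenitor genes measured, 12 were lower and 2 higher on the Flt3+ arrays labelled Irf8KO. The shares over all genes were 12.5% and 16.5%. The list had a median of -0.66 there (-0.30 with the offset correction). Among those lower were Esam, an endothelial and stem cell adhesion molecule (-1.60), and Gata2, a stem cell transcription factor (-1.40). In Flt3- GPs 10 of the 19 were lower and 3 higher on the arrays labelled Irf8KO, against 27.2% and 16.5% of all genes. The list had a median of -0.31 there (-0.19 with the offset correction), while Ly6a was at 0.13 and not called. In wild type 14 of the 19 were higher and 2 lower in Flt3+ GPs, against 22.6% and 39.2% of all genes. Procr, the protein C receptor gene, was at 2.61 and Prom1, the CD133 gene, at -6.23. Among the arrays labelled Irf8KO 13 were higher and 4 lower in Flt3+ GPs, against 22.1% and 23.6% of all genes. The list had a median of 0.80 there (0.40 with the offset correction), while Ly6a was at -0.66. The log2 summed level of the list ranged from 8.52 to 8.55 in wild-type Flt3+ GPs and from 8.33 to 8.39 in those labelled Irf8KO. It ranged from 7.58 to 7.62 and from 7.27 to 7.30 in the matching Flt3- groups. The part of stem-like cells in the Ly6a difference was not tested.

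By profile, Ly6a was nearest to Serpina3f (0.0806), a serine protease inhibitor gene, Enpp5 (0.0975), a pyrophosphatase family gene, and Tbxas1 (0.103), the thromboxane synthase gene, against a profile SD of 0.294. Their likeness includes the Flt3+ genotype difference, which was -0.69 for Serpina3f and -0.53 for Enpp5 and was part of the choice.

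Ly6c1 divided the populations and not, to any comparable size, the genotypes. With the brighter of its probes, used for the gene, the signal was 5.09 and 5.06 in wild-type Flt3+ and 7.99 and 7.95 in wild-type Flt3- GPs. It was 5.001 and 5.023 in Flt3+ and 8.12 and 8.20 in Flt3- GPs labelled Irf8KO. All 4 Flt3- arrays were higher than all 4 Flt3+ arrays, and the genotypes lay within 0.25 of each other between arrays of the same experiment and population.

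Ly6c1 RNA was 7.42-fold lower in Flt3+ than in Flt3- GPs of wild type (-2.89, SE 0.045, limma adjusted p = 7.04e-07). It was 8.86-fold lower among the arrays labelled Irf8KO (-3.15, SE 0.045, limma adjusted p = 9.39e-07). The genotype difference in Flt3+ GPs was -0.06, with a 95% interval of -0.18 to 0.05 (limma adjusted p = 0.339). In Flt3- GPs it was 0.19, a 1.14-fold difference (limma adjusted p = 0.0185), which was lost under 6 of 17 alternative settings. The difference between these was -0.26 (limma adjusted p = 0.0315), and its call held under 5 of 16 settings.

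The second Ly6c1 probe, A_55_P1961499, gave the same direction between populations with larger differences than A_55_P2064771. Its signal was 2.87 and 2.88 in wild-type Flt3+, 6.74 and 6.69 in wild-type Flt3-, 3.11 and 3.15 in Flt3+ labelled Irf8KO, and 6.84 and 6.90 in Flt3- labelled Irf8KO. The Flt3+ minus Flt3- difference in wild type was -3.87 and -3.80 in the 2 experiments by this probe and -2.90 and -2.89 by the other, so the probes differed by more than the experiments did. In Flt3+ GPs this probe was higher on the arrays labelled Irf8KO, by 0.25 (limma adjusted p = 0.0261 over 32672 probes), where the brighter probe gave -0.06. A direction of Ly6c1 between genotypes in Flt3+ GPs thus depended on the probe.

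**Figure D2:**
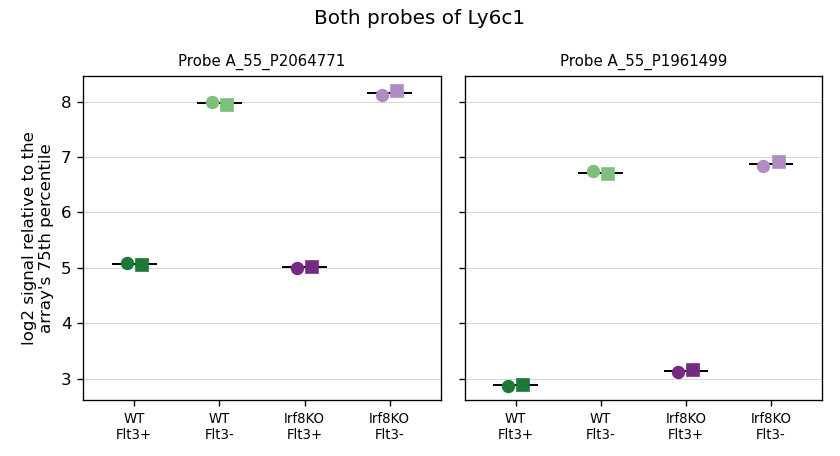
Log2 signal relative to the array's 75th percentile (y axis) of both Ly6c1 probes in the 4 groups (x axis), with circles for experiment 1, squares for experiment 2 and bars for the mean of the 2 arrays. In both panels the Flt3- arrays are well above the Flt3+ arrays, with a wider gap for probe A_55_P1961499; levels of different probes cannot be compared.

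Ly6c1, Ly6c2 and Ly6g are close copies of one another, so a Ly6c1 probe can also bind RNA of its neighbours and its values are uncertain to that extent. The copies can be seen in the 250 bases before their starts. These are shown because, of the 6 genes, only these 3 had a window, while Ly6c2 and Ly6g had no probe. The sequences are from RefSeq (build GRCm38.p6), 5′ to 3′ on the gene's strand, from the table's first window of each gene: chr15:75048838-75049087 on the minus strand for Ly6c1, chr15:75111972-75112221 on the minus strand for Ly6c2 and chr15:75155011-75155260 on the plus strand for Ly6g. Capitals mark the single match to a searched motif.
Ly6c1: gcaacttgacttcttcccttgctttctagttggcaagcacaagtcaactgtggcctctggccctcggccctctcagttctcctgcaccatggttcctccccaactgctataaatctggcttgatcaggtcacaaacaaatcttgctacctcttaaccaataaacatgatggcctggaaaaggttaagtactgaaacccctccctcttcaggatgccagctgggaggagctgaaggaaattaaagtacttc
Ly6c2: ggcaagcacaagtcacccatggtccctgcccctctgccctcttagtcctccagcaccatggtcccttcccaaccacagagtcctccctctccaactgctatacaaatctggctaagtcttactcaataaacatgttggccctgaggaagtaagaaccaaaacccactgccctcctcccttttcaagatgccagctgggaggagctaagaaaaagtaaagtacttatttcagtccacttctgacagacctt
Ly6g: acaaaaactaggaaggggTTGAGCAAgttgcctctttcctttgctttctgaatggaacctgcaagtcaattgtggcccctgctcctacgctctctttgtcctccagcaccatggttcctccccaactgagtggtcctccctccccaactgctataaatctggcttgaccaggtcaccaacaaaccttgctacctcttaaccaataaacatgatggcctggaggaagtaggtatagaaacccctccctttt
Aligned to each other, Ly6c1 and Ly6c2 were identical at 171 of 210 aligned bases (81.4%), Ly6c1 and Ly6g at 175 of 204 (85.8%), and Ly6c2 and Ly6g at 156 of 190 (82.1%). Windows were found for 3 of the 6 genes. Searched on both strands, GAAANNGAA (a core of the interferon-stimulated response element), GGAANNGAA (an ETS-IRF composite site) and TTCNNNGAA (a STAT site) had no match in these windows. They matched in 7.13%, 6.99% and 7.02% of the 32851 windows of that length in the table. TTGCNNAA, a C/EBP site, matched once, in the Ly6g window, and in 9.56% of all windows. The motifs can overlap one another, and a match is a description of letters only.

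Genes of a neutrophil primary granule list were lower in Flt3+ GPs like Ly6c1. The list mixes genes of granule proteins with other genes of granulocyte progenitors, such as Cebpe and Ms4a3. All 15 measured were lower in wild-type Flt3+ than Flt3- GPs, with a median of -2.14, against 39.2% of all genes called lower. All 15 were lower among the arrays labelled Irf8KO too, with a median of -1.77, against 23.6% of all genes. Examples in wild type were Elane (-4.68), Cebpe, a transcription factor of granulocyte maturation (-5.97), and Ms4a3, a gene of granulocyte-monocyte progenitors (-5.30). Between genotypes in Flt3+ GPs 11 of the 15 rose and 1 fell on the arrays labelled Irf8KO, against 16.5% and 12.5% of all genes. Elane was higher there by 2.34, while Ly6c1 differed by -0.06.

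Monocyte genes did not divide the populations in one direction. Of 15 measured, 7 were higher and 4 lower in wild-type Flt3+ GPs, against 22.6% and 39.2% of all genes. Among those called were Cd14, the lipopolysaccharide co-receptor (-2.87), and Ctss, the cathepsin S gene (2.56). The 11 calls became 7 without the wild-type Flt3+ array of experiment 2 and 6 without the wild-type Flt3- array of experiment 1. Their log2 summed level ranged from 6.77 to 6.83 in wild-type Flt3+ and from 6.56 to 6.57 in wild-type Flt3- GPs, and from 7.39 to 7.45 over both groups labelled Irf8KO. With the Irf8KO label 16.5% of all genes rose in each population, and 12.5% fell in Flt3+ and 27.2% in Flt3- GPs. Of 17 measured mature neutrophil genes, 13 rose and 1 fell with that label in either population. Their medians of 1.78 in Flt3+ and 1.16 in Flt3- GPs became 0.65 and 0.49 with the offset correction. Between populations, 4 were higher and 4 lower in wild-type Flt3+ GPs, against 22.6% and 39.2% of all genes. Among the arrays labelled Irf8KO 7 were higher and 4 lower, against 22.1% and 23.6%. The part of these cells in the Ly6c1 values was not tested.

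Nearest to the Ly6c1 profile were Dio2 (0.130), a thyroid hormone deiodinase gene, Dstn (0.135), an actin-depolymerising factor gene, and Rnd1 (0.176), a small GTPase gene, against a profile SD of 1.51. In wild type the Flt3+ minus Flt3- difference was -2.79 for Dio2 and -3.22 for Rnd1, and it was part of the choice.

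Ly6e had its highest signals in wild-type Flt3- GPs and changed by less than 2-fold in all 5 comparisons. Its signal was 6.61 and 6.46 in wild-type Flt3+ and 7.02 and 6.94 in wild-type Flt3- GPs. It was 6.22 and 6.17 in Flt3+ and 6.22 and 6.29 in Flt3- GPs labelled Irf8KO. The wild-type groups were higher than all 4 arrays labelled Irf8KO, whose populations met at 6.22.

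On the arrays labelled Irf8KO, Ly6e was 1.65-fold lower in Flt3- GPs (-0.73, 95% interval -0.89 to -0.56, limma adjusted p = 0.000828). In Flt3+ GPs it was 1.26-fold lower (-0.34, -0.50 to -0.17, limma adjusted p = 0.0159). That second call was lost without either Flt3+ array labelled Irf8KO (limma adjusted p = 0.0587 without experiment 1 and 0.0883 without experiment 2).

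Between populations, Ly6e was 1.37-fold lower in wild-type Flt3+ than Flt3- GPs (-0.45, SE 0.067, limma adjusted p = 0.00191), and quantile normalization ended this call (-0.08, limma adjusted p = 0.324). Among the arrays labelled Irf8KO the population difference was -0.06 (-0.22 to 0.11, limma adjusted p = 0.506). The genotype differences of the 2 populations differed by 0.39 (limma adjusted p = 0.0283), a call lost when any 1 array outside the wild-type Flt3+ group was left out (limma adjusted p = 0.0559 to 0.0933).

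Interferon-stimulated genes, the class to which Ly6e is usually counted, mostly had the other sign where Ly6e was called, except between genotypes in Flt3+ GPs. In wild-type Flt3+ GPs 27 of 33 measured were higher and 2 lower than in Flt3- GPs, against 22.6% and 39.2% of all genes. The list had a median of 0.90 there, where Ly6e was at -0.45. Ifi44 (3.70) and Rtp4 (2.12), both interferon-induced genes, had large differences. In Flt3- GPs 19 of the 33 rose and 4 fell on the arrays labelled Irf8KO, against 16.5% and 27.2% of all genes. Oas2, an oligoadenylate synthetase gene, was at 2.28 there and Ly6e at -0.73. The 23 calls in Flt3- GPs became 15 without the wild-type array of experiment 1. In Flt3+ GPs 8 rose and 13 fell, against 16.5% and 12.5% of all genes. The difference between genotype differences was called below 0 for 20 and above 0 for 2, against 9.45% and 21.4% of all genes. Ly6e was at 0.39 in that comparison.

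The nearest profiles to Ly6e were those of E2f1 (0.0730), a cell cycle transcription factor gene, Chchd10 (0.0768), a mitochondrial protein gene, and Hspa4 (0.0824), a heat shock protein gene, against a profile SD of 0.314. The group means of E2f1 were 3.15 and 3.52 in wild-type Flt3+ and Flt3- and 2.88 and 2.87 in the same populations labelled Irf8KO. Their likeness to Ly6e was part of the choice.

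**Figure D3:**
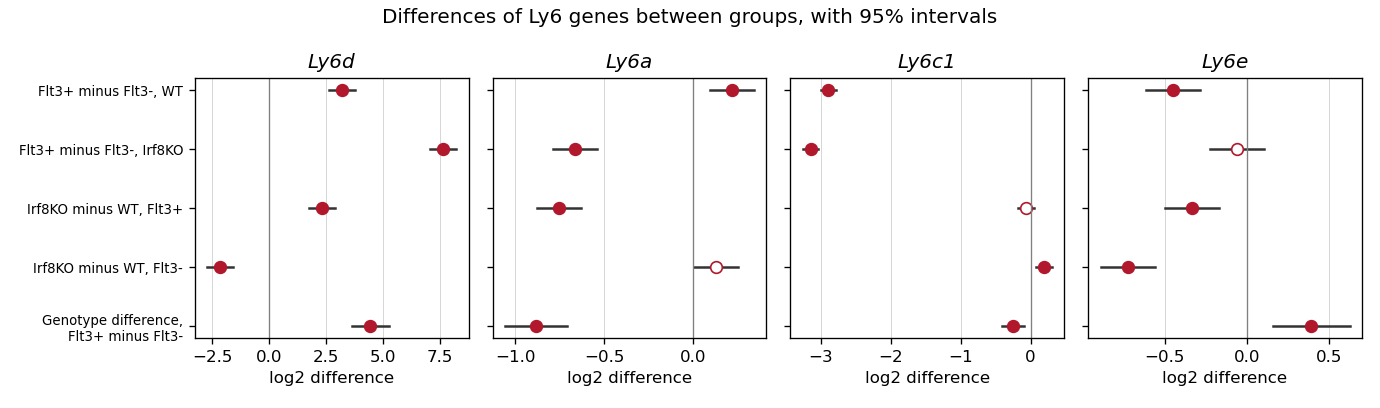
Log2 differences (x axis, a separate scale for each gene) of Ly6d, Ly6a, Ly6c1 and Ly6e in 5 comparisons (y axis), with bars for 95% intervals from the fit across all genes; filled points were called at an adjusted p under 0.05. The 2 genotype differences of Ly6d lie on opposite sides of 0, at 2.31 and -2.14.

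Counted over the 4 measured members, Flt3+ against Flt3- GPs of wild type gave 2 higher (Ly6a, Ly6d) and 2 lower (Ly6c1, Ly6e). Over all 14109 genes, 22.6% were called higher and 39.2% lower in that comparison. Between genotypes 1 member was higher and 2 were lower in Flt3+ GPs, against 16.5% higher and 12.5% lower over all genes, and likewise 1 and 2 in Flt3- GPs, against 16.5% higher and 27.2% lower. Among the arrays labelled Irf8KO, 1 was higher and 2 were lower in Flt3+ GPs, against 22.1% higher and 23.6% lower. The difference between genotype differences was called above 0 for 2 members and below 0 for 2, against 21.4% and 9.45% over all genes. With 4 genes and backgrounds this wide, the counts do not set the family apart from other genes. The median difference of the members was -0.11 in wild type between populations (0.15 under quantile normalization), next to -0.12 over all genes tested. Between genotypes it was -0.20 in Flt3+ GPs (-0.33 under quantile normalization), next to 0.04, and -0.30 in Flt3- GPs, next to -0.03. Between populations labelled Irf8KO it was -0.36, next to -0.03. For the difference between genotype differences it was 0.07 (-0.04 under quantile normalization), next to 0.07.

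Scaling moved the background of all 5 comparisons. Under quantile normalization 50.5% of the called genes were higher in wild-type Flt3+ GPs in place of 36.6%, and the median of all genes moved from -0.12 to -0.01. Relative to that median, Ly6d stood at 3.32 and under quantile normalization at 3.22, Ly6c1 at -2.78 and -2.70, Ly6a at 0.34 and 0.40, and Ly6e at -0.33 and -0.07. For the difference between genotype differences the share of calls above 0 was 51.4% in place of 69.4%. Between genotypes, the share of calls that were higher with the Irf8KO label was 47.8% in place of 56.8% in Flt3+ and 46.5% in place of 37.7% in Flt3- GPs, and between populations labelled Irf8KO the share higher in Flt3+ was 55.2% in place of 48.3%.

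Other genes with a Ly6/uPAR domain were called between populations no more often than genes at large. Of 41 on a list of such genes 37 had a probe and 20 passed the filter on dim signal. In wild type 2 of the 20 were higher and 6 lower in Flt3+ than Flt3- GPs, against 22.6% and 39.2% of all genes. Among the arrays labelled Irf8KO 3 were higher and 3 lower, against 22.1% and 23.6% of all genes. Lypd6b, a modulator of nicotinic receptors, was at -1.86 and -1.73 in wild-type Flt3+ and at -4.11 and -4.12 in wild-type Flt3- GPs, a difference of 2.32 (limma adjusted p = 9.56e-06). It fell on the Flt3+ arrays labelled Irf8KO, where it was at -3.36 and -3.15 (difference -1.46, limma adjusted p = 0.000212). In Flt3- GPs labelled Irf8KO it was well above background on 1 of 2 arrays.

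Ly6f, a close relative of Ly6c1 in the same gene cluster, was at -3.23 and -3.39 in wild-type Flt3+ and at -1.51 and -1.62 in wild-type Flt3- GPs. It was lower in Flt3+ GPs of both genotypes, by -1.74 in wild type and -1.78 among the arrays labelled Irf8KO (limma adjusted p = 1.14e-05 and 1.33e-05). Ly6i, another member of that cluster, was lower in Flt3+ GPs by -0.62 and -0.68 and rose on the arrays labelled Irf8KO in both populations, by 0.62 and 0.68 (limma adjusted p = 0.000306 and 0.000271). Signals of these relatives may include RNA of Ly6c1 or Ly6c2 bound by a similar probe, which was not tested.

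Lynx1, a nicotinic receptor modulator next to Ly6d on the chromosome, was higher in Flt3+ GPs by 1.05 in wild type and by 1.15 among the arrays labelled Irf8KO. Plaur, the urokinase receptor gene, was lower (-1.22 and -0.72), and its genotype differences differed by 0.50 between the populations (limma adjusted p = 0.0220). Cd59a, which encodes an inhibitor of complement, was at -1.06 and -0.92 in wild-type Flt3+ and at -0.95 and -0.99 in wild-type Flt3- GPs. It fell on the arrays labelled Irf8KO in both populations, by 0.49 and 0.60 (limma adjusted p = 0.0172 and 0.00542). Ly6k was lower in Flt3+ GPs of wild type (-0.25) and higher by 0.24 among the arrays labelled Irf8KO, where the offset correction ended the call.

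**Figure D4:**
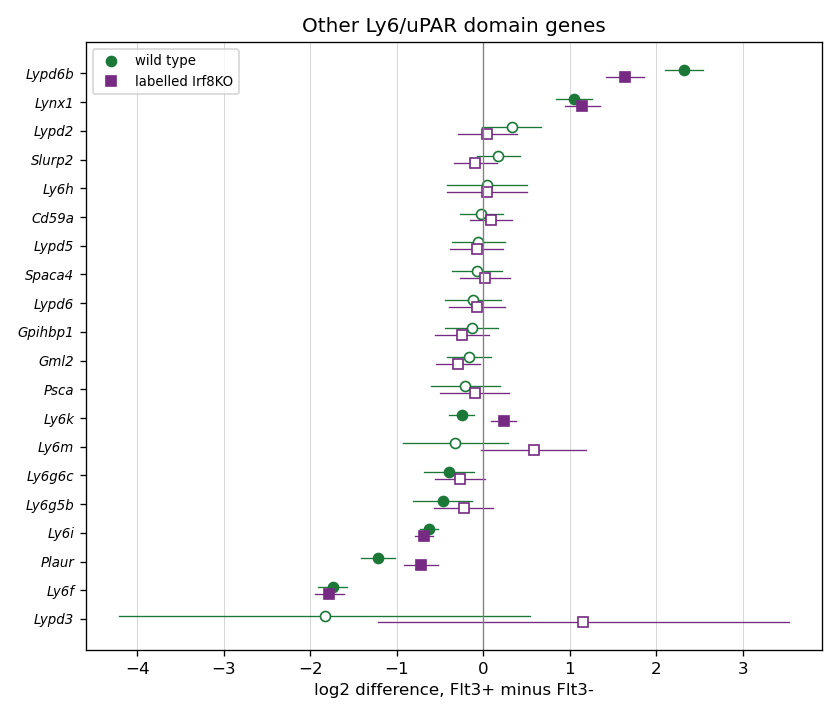
Log2 differences, Flt3+ minus Flt3- (x axis), of 20 other genes with a Ly6/uPAR domain (y axis), with circles for wild type, squares for the arrays labelled Irf8KO, bars for 95% intervals and filled points for calls. Lypd6b and Lynx1 lie to the right and Ly6f, Plaur and Ly6i to the left in both genotypes.

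All 6 members lie on chromosome 15. In the RefSeq order of that chromosome, a stretch of 43 genes from 3 before Ly6d to 3 after Ly6h, chosen after their values were seen, held 17 genes with a probe, of which 14 were measured. In wild type 3 of the 14 were higher in Flt3+ GPs and 5 lower, against 22.6% higher and 39.2% lower over all genes, so the counts do not set the stretch apart. Along the stretch, Lynx1 (1.05) and Ly6d (3.20) were followed by Ly6k (-0.25), Ly6e (-0.45), Ly6i (-0.62), Ly6a (0.22), Ly6c1 (-2.89) and Ly6f (-1.74), listing those called.

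Genes that make the GPI anchor and attach it to proteins such as the Ly6 antigens showed small differences. In wild type 4 of 28 measured were higher and 16 lower in Flt3+ GPs, against 22.6% and 39.2% of all genes. The list had a median of -0.26 against -0.12 over all genes. Quantile normalization gave 5 higher and 11 lower with a median of -0.08. Piga, the catalytic subunit of the first step, was at -0.72 and Pigk, the protease of the transfer complex, at -0.73. Pgap3, which remodels the anchor's lipid, was at 0.79. Among the arrays labelled Irf8KO 3 were higher and 9 lower in Flt3+ GPs, against 22.1% and 23.6% of all genes. The list had a median of -0.16 there. Between genotypes 4 rose and 2 fell in Flt3+ GPs on the arrays labelled Irf8KO, against 16.5% and 12.5% of all genes, and 3 rose and 8 fell in Flt3- GPs, against 16.5% and 27.2%. These counts depended on single arrays. Of the 6 called in Flt3+ GPs, the number was 2 without the wild-type array of experiment 1, and 1 and 2 without the Irf8KO-labelled arrays of experiments 1 and 2. In Flt3- GPs, 11 became 4 without the wild-type array of experiment 2 and 7 without any 1 of the other three.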

How the data were processed

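Per the file headers, the deposited scanner files were made by Agilent Feature Extraction 10.7.3.1, and the authors' processed signal, a background-subtracted and detrended intensity, was used. Per the labels' protocols, total RNA from a micro column kit was labelled with Cy3 after low-input amplification. The build in the headers is mm9; a RefSeq table of build GRCm38.p6 served for gene names and gene order, and a second one for promoter windows. The deposited series table holds the same intensities scaled to one 75th percentile per array; its column medians were 26.9 to 29.9.

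Control and outlier spots (93 to 178 per array) were left out, spots of a probe averaged, log2 taken and the array's 75th percentile subtracted. Of 55681 probes 26762 were named by accession. A probe was kept when at least 1 group had it well above background on both of its arrays, and the brightest kept probe stood for a gene. One mean per group was fitted over 8 arrays (limma 3.58.1, R 4.3.3, Benjamini-Hochberg adjustment), with 5 comparisons. On simulated data for the wild-type population comparison, 83% of genes changed 2-fold and 91% changed 4-fold were recovered of 200 changed, with 20 false calls. Those genes were changed in wild-type Flt3+ GPs only. In the data 8729 genes were called in that comparison, so these rates cannot be carried over to the calls. The number of arrays limits precision.

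The genes and lists were chosen with earlier results of these data known. Named genes were the 6 members, Irf8 and Flt3, the 3 nearest profiles of each member, and up to 4 called genes of largest difference per list and comparison; Dntt, Elane and Mpo also served as checks, and other genes with a Ly6/uPAR domain were named after their values were seen. A list gene that this rule names is not reported here. Alternatives were quantile normalization, normexp, the series table, other filters and probes, fewer arrays, each array left out and the experiment number as a block. Ly6c2 and Ly6g are not analysed here.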

Additional observations from a re-analysis of the deposited data

Results flagged for a closer look

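For each of the 4 measured genes the genotype difference in Flt3+ GPs differed from that in Flt3- GPs by the test of that difference (limma, adjusted over 14109 genes). Of all genes, 21.4% were called above 0 and 9.45% below 0 in that test. For Ly6d the difference was 4.45 (2.71 with the offset correction), with each Flt3+ array labelled Irf8KO above wild type and each Flt3- array below. It was -0.88 for Ly6a, where 2 of 2 Flt3+ arrays labelled Irf8KO were lower and 2 of 2 Flt3- arrays higher than both wild-type arrays. For Ly6e it was 0.39, with both populations lower where labelled Irf8KO, and 8 of 16 alternative settings ended the call. For Ly6c1 it was -0.26, and 10 of 16 settings ended the call while the second probe turned its sign.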

How the results depend on the processing

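Of 20 differences of the Ly6 genes, those of Ly6d held under every setting that could be run. The offset correction shrank the dim ones, and Ly6d has no value under the filter for signal above background on all arrays. Ly6c1 between populations of either genotype and Ly6e between genotypes in Flt3- GPs also held under every setting. For Ly6a the same was true between genotypes in Flt3+ GPs, between populations labelled Irf8KO and for the difference between genotype differences. The planned normexp correction on mean spot signal could not be run because the files hold no such column, and the median spot signal, chosen after seeing the data, replaced it. Genes called between genotypes in Flt3+ GPs fell from 4088 to 2679 without the filter on dim probes and to 2665 with only the arrays compared, and ranged from 1996 to 3678 when 1 array was left out. In Flt3- GPs 6158 became 4054 to 6442 when 1 array was left out. For the difference between genotype differences, 4354 became 2725 without the filter and 2515 to 4416 with 1 array left out. Ly6c1 between genotypes in Flt3+ GPs turned to 0.094 as a mean of its probes and to 0.25 with the other probe, and its difference between genotype differences to 0.094 with the other probe. Ly6e between populations labelled Irf8KO turned to 0.064 under quantile normalization. The cause was not tested beyond the alternatives' own construction. Same-numbered arrays of different groups deviated with correlations of -0.0283 to 0.123, so the experiment numbers were not used as pairs; with the replicate block 8783, 4008, 6202, 6552 and 4407 genes were called in the 5 comparisons (8729, 4088, 6158, 6457 and 4354 without it), and no call of a Ly6 gene changed.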
